A study of Mus musculus with 8 samples.

Results

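Annexins are cytosolic proteins that bind membranes carrying acidic phospholipids when calcium rises, through a conserved core of repeats behind a variable amino-terminal stretch. Members such as Anxa1, Anxa2, Anxa5 and Anxa6 act in membrane repair, in vesicle traffic and at the cell cortex, and Anxa5 is the protein used to stain phosphatidylserine on dying cells. Anxa8 is best known from stratified epithelia, and Anxa2 pairs with S100a10 in a complex that binds plasminogen. The genes described here are the 9 annexins Anxa1, Anxa2, Anxa3, Anxa4, Anxa5, Anxa6, Anxa7, Anxa8 and Anxa11. They were chosen by symbol, as all probes that the array annotation gives to them, which came to 20 of the 45281 probes on the array. The family was picked with earlier results of these data known. Anxa8, which the choice singles out, is therefore described with no test, and the tests on the other genes are not independent of that choice.

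The RNA came from mouse pre-iPSCs, which are cells caught on the way to pluripotency. They were female, of 129/MF1 strain and made from neural stem cells (NSCs). They carried an Oct4 reporter with GFP and puromycin resistance, and were kept in serum with LIF. Every line held stably integrated PiggyBac vectors with a CAG promoter and had been selected with hygromycin, blasticidin or both. There were 4 groups of 2 arrays each at day 0, namely empty vector (EV), Nanog with an empty vector (Nanog), Sin3a with an empty vector (Sin3a), and both transgenes (Nanog+Sin3a). The title of the series asks whether the Sin3a co-repressor complex works together with the pluripotency factor Nanog. Whether the arrays of 1 group are separate cultures is not stated in the labels, and the p-values speak only of the spread from array to array, which may be technical. In bulk RNA, fewer cells of a type and less RNA per cell cannot be told apart.

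On each array 35.7% to 36.1% of probes lay above an intensity of 16, called the floor, to which lower values were raised. The Nanog probe read -4.50 ± 1.27 in EV, 425 ± 85.6 in Nanog and 287 ± 3.04 in Nanog+Sin3a (SD, n = 2). The Sin3a probe read 296 ± 47.7 in EV, 408 ± 90.6 in Nanog, 1162 ± 28.6 in Sin3a and 1484 ± 0.99 in Nanog+Sin3a. Between Nanog and EV the log2 difference of the Sin3a probe was 0.46 (SE 0.17, limma adjusted p 0.235), with no overlap of the arrays. Between Nanog+Sin3a and Nanog the log2 difference of the Nanog probe was -0.55 (SE 0.18, limma adjusted p 0.372), with no overlap of the arrays. The second Sin3a array stood apart at low and middle intensity. Of 7740 probes with a mean log2 value of 5 to 8, 78.8% differed by over 1 on the log2 scale between the Sin3a arrays, against 0.271% between the EV arrays. Comparisons among EV, Nanog and Nanog+Sin3a were therefore fitted without that array (7 arrays, 18558 probes). Comparisons with the Sin3a group were fitted on all 8 arrays over the 2670 bright probes, those with a mean log2 value above 9, an intensity of 512. Of the cells' defining markers, Pou5f1 was measured at 867 to 1167 on every array, while the pluripotency genes Dppa3 and Utf1 stayed below the floor on all of them. Of the neural stem cell markers, Egfr was above the floor on every array and Nes on 7 of 8, whereas Fabp7 and Slc1a3 were below it on all 8.

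Of the 20 annexin probes, 13 were above the floor in at least 2 of the 7 arrays and were tested, which covered 8 genes. The other 7 probes were not tested. Of these, 6 were at or below the floor on all 8 arrays and 1, a probe of Anxa11, passed it on 1 array only. Just 4 probes were bright, 1 of Anxa2, both of Anxa3 and the single probe of Anxa5. Of the annexin symbols outside the rule, Anxa9 reached at most 19.2, Anxa10 at most 17.0 and Anxa13 at most -7.2 on any array, over 5 probes.

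The sequences upstream of 4 members are shown because Anxa8 and Anxa5 read higher with Nanog while Anxa2 and Anxa1 did not pass the test. They are the 250 bases before the annotated start, from the RefSeq promoter table for GRCm38.p6, a C57BL/6J reference and not the 129/MF1 background of the cells. Capitals mark matches to the letters searched on both strands, and a strand in parentheses is that of the gene. A window was given for 7 of the 9 members, not for Anxa3 or Anxa6.
Anxa8, chr14:34085729-34085978 (+): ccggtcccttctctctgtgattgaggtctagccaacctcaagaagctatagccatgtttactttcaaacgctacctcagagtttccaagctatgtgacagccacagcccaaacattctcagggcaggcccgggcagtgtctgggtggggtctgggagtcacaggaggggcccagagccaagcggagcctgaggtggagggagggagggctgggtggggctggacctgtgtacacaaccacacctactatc
Anxa5, chr3:36475888-36476137 (-): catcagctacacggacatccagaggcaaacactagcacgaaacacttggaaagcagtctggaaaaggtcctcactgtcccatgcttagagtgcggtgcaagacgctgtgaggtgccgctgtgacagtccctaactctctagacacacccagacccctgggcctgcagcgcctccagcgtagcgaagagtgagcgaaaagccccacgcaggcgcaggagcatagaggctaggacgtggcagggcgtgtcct
Anxa2, chr9:69453433-69453682 (+): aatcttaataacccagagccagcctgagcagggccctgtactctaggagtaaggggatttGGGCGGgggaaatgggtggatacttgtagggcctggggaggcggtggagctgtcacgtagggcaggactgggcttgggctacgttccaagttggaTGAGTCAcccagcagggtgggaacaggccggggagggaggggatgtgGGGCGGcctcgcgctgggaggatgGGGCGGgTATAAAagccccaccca
Anxa1, chr19:20390672-20390921 (-): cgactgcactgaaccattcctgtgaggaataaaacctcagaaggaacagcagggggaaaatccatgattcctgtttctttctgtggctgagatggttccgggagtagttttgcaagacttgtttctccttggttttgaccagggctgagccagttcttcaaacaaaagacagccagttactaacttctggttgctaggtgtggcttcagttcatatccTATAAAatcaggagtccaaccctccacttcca

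The Anxa8 window held 4 CpG dinucleotides and a GC content of 58.0%, and 37.8% of the 32851 windows in the table held fewer CpGs. The Anxa5 window held 13 CpGs, with fewer in 68.5% of windows. Neither had a match to the 4 motifs searched, which were TATAAA (the TATA box), TGAGTCA (an AP-1 site), GGGCGG (the GC box) and TAATGG (a homeodomain core). These letters occurred in 12.4%, 4.46%, 32.7% and 6.57% of all windows of this length. The Anxa2 window had TATAAA 17 bases before the start, TGAGTCA 95 bases before it and GGGCGG in 3 places. The Anxa1 window had only 2 CpGs and had TATAAA 32 bases before the start. A match is a description of letters and says nothing of a bound factor.

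Anxa8 was the member that differed most between groups on the log2 scale. Its brighter probe, ILMN_2724558, read 65.0 and 67.2 on the EV arrays, 280.5 and 378.3 on the Nanog arrays, and 450.9 and 362.5 on the Nanog+Sin3a arrays. It read 60.1 on the first Sin3a array and -1.2 on the second, the noisy one. All 4 arrays with Nanog were thus above all 4 without it, and the first Sin3a array lay just under EV. For no member was this set beside the share of all probes that separate in this way, which was not counted. The level was 4.93-fold higher in Nanog than in EV (log2 difference 2.30, SE 0.18) and 6.12-fold higher in Nanog+Sin3a than in EV (log2 difference 2.61, SE 0.18). Both differences use the same EV arrays. Between Nanog+Sin3a and Nanog the arrays overlapped, with a ratio of 1.24. Against the first Sin3a array alone, Nanog+Sin3a was 6.73-fold higher (log2 difference 2.75). Against both Sin3a arrays the log2 difference was 3.70, the second having been raised to the floor.

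The dimmer Anxa8 probe, ILMN_2863332, gave the same order of groups. It read 21.0 and 8.1 in EV, 59.3 and 67.5 in Nanog, 6.8 and -12.3 in Sin3a, and 66.8 and 80.0 in Nanog+Sin3a. The groups with Nanog again did not overlap those without it. With the second EV array at the floor, Nanog was 3.45-fold above EV (log2 difference 1.79, SE 0.23) and Nanog+Sin3a 3.99-fold (log2 difference 2.00, SE 0.23). Both Sin3a arrays were at the floor, so Nanog+Sin3a was at least 4.57-fold above Sin3a. These folds move with the floor, and the log2 difference of Nanog from EV was 0.98 with a floor of 32 and 2.28 with a floor of 8. For Nanog+Sin3a from EV it was 1.19 and 2.49.

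**Figure D1:**
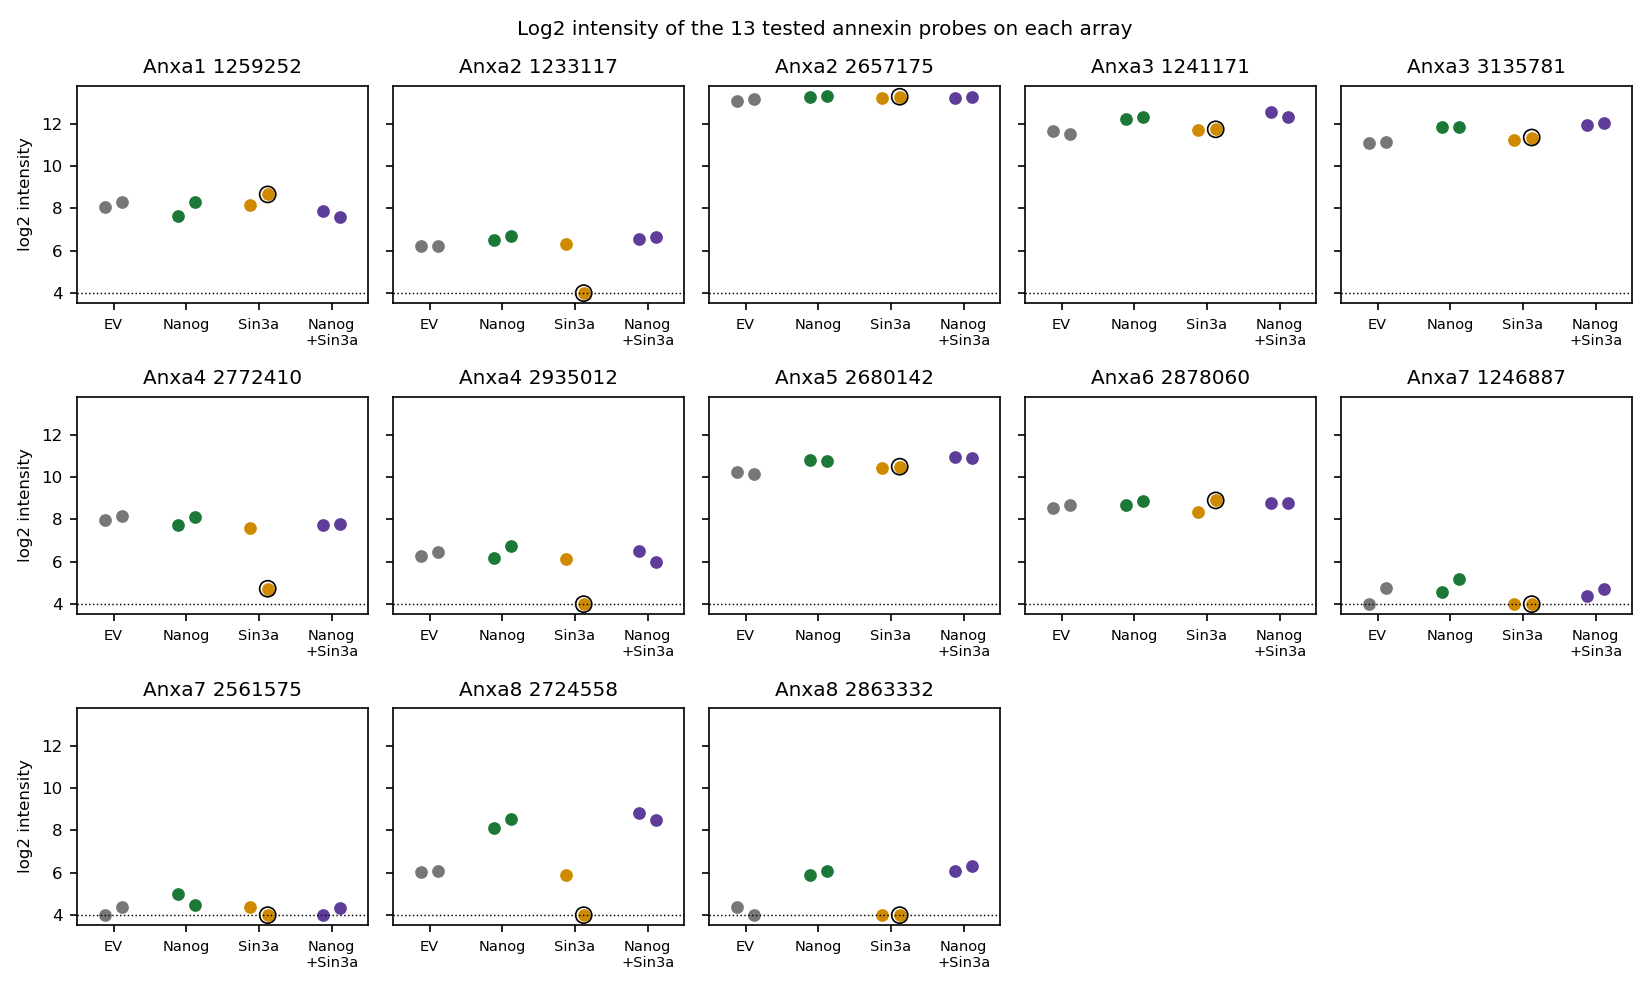
Log2 intensity (y axis) of each of the 13 tested annexin probes on each of the 8 arrays, by group (x axis), 1 point per array; panel titles give the symbol and the digits of the probe name. The dotted line is the floor and ringed points are the second Sin3a array. The Anxa8, Anxa3 and Anxa5 probes and the dimmer Anxa2 probe are higher on all 4 arrays with Nanog than on the other 4. For the Anxa8 probes and the dimmer Anxa2 probe, the other 4 include the second Sin3a array, which is noisy at this intensity. The share of all probes that separate in this way was not counted.

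Of the members that were tested, Anxa3 and Anxa5 passed in Nanog against EV. Anxa3, a small annexin studied in myeloid cells and tumours, was measured by a pair of bright probes. ILMN_1241171 read 3184 and 2917 in EV, 4739 and 5114 in Nanog, 3364 and 3410 in Sin3a, and 6097 and 5090 in Nanog+Sin3a. ILMN_3135781 read 2176 and 2245 in EV, 3648 and 3672 in Nanog, 2442 and 2609 in Sin3a, and 3903 and 4161 in Nanog+Sin3a. On both probes the arrays with Nanog lay above all arrays without it. In the 7-array fit the log2 difference of Nanog from EV was 0.69 (SE 0.12, limma adjusted p 0.0422) for the first probe. It was 0.73 (SE 0.08, limma adjusted p 0.0155) for the second, folds of 1.62 and 1.66. Nanog+Sin3a was 1.83-fold and 1.82-fold above EV on these probes, with limma adjusted p of 0.0158 and 0.00577.

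Anxa5, which binds phosphatidylserine and can crystallise into a lattice on a torn membrane, was read by 1 probe. It read 1218 and 1143 in EV, 1777 and 1740 in Nanog, 1363 and 1439 in Sin3a, and 2008 and 1899 in Nanog+Sin3a. The order of groups was EV, Sin3a, Nanog and Nanog+Sin3a, with no overlap between neighbours. Nanog was 1.49-fold above EV (log2 difference 0.58, SE 0.08, limma adjusted p 0.0277) and Nanog+Sin3a 1.65-fold (log2 difference 0.73, SE 0.08, limma adjusted p 0.00993). The outer steps in that order missed the threshold, Sin3a against EV on the bright probes (limma adjusted p 0.623) and Nanog+Sin3a against Nanog in the 7-array fit (limma adjusted p 0.597). The step from Sin3a to Nanog was not tested.

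Counted over the family without Anxa8, which was described with no test, 3 of 18 probes passed in Nanog against EV, or 3 of the 11 tested, all higher. They were both Anxa3 probes and the Anxa5 probe. Across all probes, 2.04% passed in that comparison, 1.08% of them higher and 0.959% lower as shares of those tested. In Nanog+Sin3a against EV the same 3 probes passed, all higher, where 5.87% of all probes passed, 2.8% higher and 3.08% lower. The median log2 difference of these 11 probes was 0.40 in Nanog and 0.16 in Nanog+Sin3a against EV, beside 0 for all probes. These rest on few arrays. In the 7-array fit none of the 11 passed in Nanog against EV once any 1 array of the EV, Nanog or Nanog+Sin3a group was left out, and none in Nanog+Sin3a against EV once any 1 array of the EV or Nanog+Sin3a group was. Leaving out either Nanog array left 2 calls in Nanog+Sin3a against EV. With the second Sin3a array added over all probes, 0 of the 11 passed in Nanog against EV and 3 in Nanog+Sin3a against EV.

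**Figure D2:**
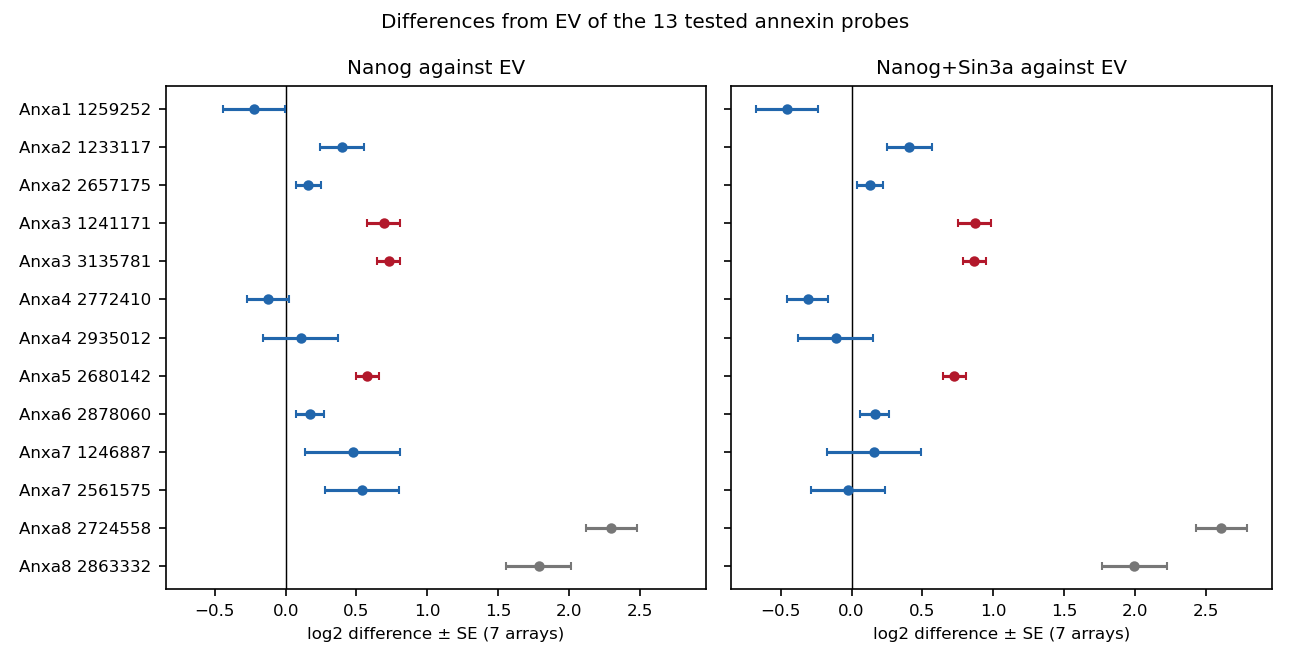
Log2 difference from EV (x axis) with its SE from the 7-array fit for the 13 tested annexin probes (y axis), for Nanog at left and Nanog+Sin3a at right. Red points passed at an adjusted p of 0.05, blue points did not, and the grey Anxa8 points, at 1.79 to 2.61, are a description with no test.

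The remaining members did not pass in any comparison that was fitted. Anxa2, the partner of S100a10, had the brightest annexin probe, ILMN_2657175, at 8757 and 9193 in EV, 9865 and 10196 in Nanog, 9611 and 9917 in Sin3a, and 9658 and 9964 in Nanog+Sin3a. EV was lowest on both arrays, but the log2 difference of Nanog from EV was only 0.16 (SE 0.09, limma adjusted p 0.412) and that of Nanog+Sin3a 0.13 (SE 0.09, limma adjusted p 0.440). A second Anxa2 probe, ILMN_1233117, which the annotation ties to a cDNA record and not a RefSeq mRNA, read 73.7 and 74.4 in EV and 90.3 and 105.5 in Nanog. It read 80.0 and -0.9 in Sin3a, the second on the noisy array, and 95.5 and 101.2 in Nanog+Sin3a. The 4 arrays with Nanog were thus above the 4 without it here too. The log2 difference of this probe was 0.40 in Nanog and 0.41 in Nanog+Sin3a against EV, with limma adjusted p of 0.250 and 0.176.

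Anxa1, known as a mediator of the glucocorticoid response in inflammation, read 272.1 and 313.1 in EV, 200.1 and 312.5 in Nanog, 282.8 and 405.1 in Sin3a, and 231.7 and 195.6 in Nanog+Sin3a. The Nanog+Sin3a arrays lay below the EV arrays with no overlap, and their log2 difference was -0.46 (SE 0.22, limma adjusted p 0.266). In Nanog it was -0.22 (SE 0.22, limma adjusted p 0.650), with overlap between the arrays.

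Anxa4, an annexin of secretory epithelia, read 255.2 and 283.5 in EV, 216.8 and 280.1 in Nanog, and 214.9 and 218.9 in Nanog+Sin3a on ILMN_2772410. It read 193.8 and 26.5 on the Sin3a arrays. The log2 difference from EV was -0.31 in Nanog+Sin3a (SE 0.15, limma adjusted p 0.257) and -0.13 in Nanog (SE 0.15, limma adjusted p 0.702). A dimmer Anxa4 probe, ILMN_2935012, ran from 63.8 to 107.7 on the 7 arrays, with the groups overlapping, and ILMN_2552516 was below the floor on every array.

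Anxa6, a large annexin with a doubled core, read 372.2 and 407.9 in EV, 416.7 and 462.7 in Nanog, 323.2 and 476.9 in Sin3a, and 441.1 and 431.5 in Nanog+Sin3a on ILMN_2878060. Its log2 difference from EV was 0.17 (limma adjusted p 0.428) in Nanog and 0.16 (limma adjusted p 0.383) in Nanog+Sin3a. Its other probes, both tied to cDNA records, stayed below the floor.

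Anxa7 and Anxa11, annexins with long amino-terminal stretches, were at or near the floor. Anxa7 ILMN_1246887 read 15.2 and 27.4 in EV, 23.5 and 35.9 in Nanog, 14.0 and -12.4 in Sin3a, and 21.1 and 25.9 in Nanog+Sin3a. Anxa7 ILMN_2561575 read 14.3 and 20.8 in EV, 32 and 22.0 in Nanog, 21.0 and -8.2 in Sin3a, and 9.8 and 20.0 in Nanog+Sin3a. Their adjusted p in Nanog against EV was 0.513 and 0.331 in the limma fit, and the Anxa7 probe tied to a RefSeq mRNA was below the floor on all 8 arrays. Anxa11 passed the floor once, at 25.5 on the first Sin3a array.

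Adding Sin3a to Nanog gave no annexin call, with Anxa8 left untested. The Nanog+Sin3a arrays lay above the Nanog arrays with no overlap on Anxa3 ILMN_3135781 and Anxa5. On Anxa7 ILMN_2561575, near the floor, they lay below with no overlap. The number of all probes that separate in this way was not counted. In Nanog+Sin3a against Nanog 0 of the 11 tested annexin probes other than Anxa8 passed in the limma fit, and 0 had an unadjusted p under 0.05. Across all probes 0.0162% passed, 3 of 18558, and 1937 had an unadjusted p under 0.05. The log2 differences of the Anxa3 probes were 0.18 (SE 0.12) and 0.14 (SE 0.08), with limma adjusted p of 0.659 and 0.632, and that of Anxa5 was 0.15 (SE 0.08, limma adjusted p 0.597). The median over the 11 probes was -0.03 on the log2 scale. Differences of this size could not be told from 0 with these arrays, which does not show that they are absent. The Nanog probe itself read 287 in Nanog+Sin3a and 425 in Nanog, and the part of this in the annexin values was not tested.

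Sin3a alone was tested on the bright probes with all 8 arrays. Here 0 of 4 annexin probes passed in the limma fit, 1 had an unadjusted p under 0.05, and 0.15% of all bright probes passed, 4 of 2670. The 4 log2 differences from EV were all above 0, as were 49.6% of those of all bright probes. They were 0.12 for Anxa2 (SE 0.07, limma adjusted p 0.732), 0.15 and 0.19 for the Anxa3 probes (limma adjusted p 0.778 and 0.670) and 0.25 for Anxa5 (SE 0.11, limma adjusted p 0.623). On each of these probes the Sin3a arrays lay above the EV arrays with no overlap. How many of all bright probes separate in this way was not counted, so no effect of Sin3a is read from it.

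The difference with Nanog was also taken as Nanog+Sin3a against Sin3a, whose means share no array with those of Nanog against EV. The spread was estimated over all groups together, and the family was chosen with earlier results of these data known. The comparison is therefore not an independent test. In Nanog+Sin3a against Sin3a 3 of the 4 bright annexin probes passed, all higher, beside 11.6% of all bright probes, 5.84% higher and 5.73% lower. Anxa3 was 0.72 (SE 0.10, limma adjusted p 8.13e-05) and 0.68 (SE 0.10, limma adjusted p 0.000109) higher on the log2 scale. Anxa5 was 0.48 higher (SE 0.11, limma adjusted p 0.00598), and Anxa2 differed by 0.01 (SE 0.07, limma adjusted p 0.967). In the same fit the log2 differences of Nanog from EV were 0.69 and 0.73 for Anxa3 (limma adjusted p 0.000194 and 9.63e-05) and 0.58 for Anxa5 (limma adjusted p 0.00222). Leaving out each array in turn kept both Anxa3 probes past the threshold in both comparisons. Anxa5 was lost from Nanog against EV without the second EV array (limma adjusted p 0.0574). It was lost from Nanog+Sin3a against Sin3a without the first Nanog+Sin3a array (limma adjusted p 0.0641), the first Sin3a array (0.0730) or the second Sin3a array (0.0591).

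The interaction, which is the Sin3a effect with Nanog minus that without it, was tested on the same bright probes. It was 0.03 (SE 0.14) and -0.05 (SE 0.14) for Anxa3, -0.10 (SE 0.15) for Anxa5 and -0.15 (SE 0.10) for Anxa2 on the log2 scale. In the limma fit 0 of 4 annexin probes passed and 0 had an unadjusted p under 0.05, beside 1 of 2670 bright probes passed, or 0.0375%, and 170 with an unadjusted p under 0.05.

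**Figure D3:**
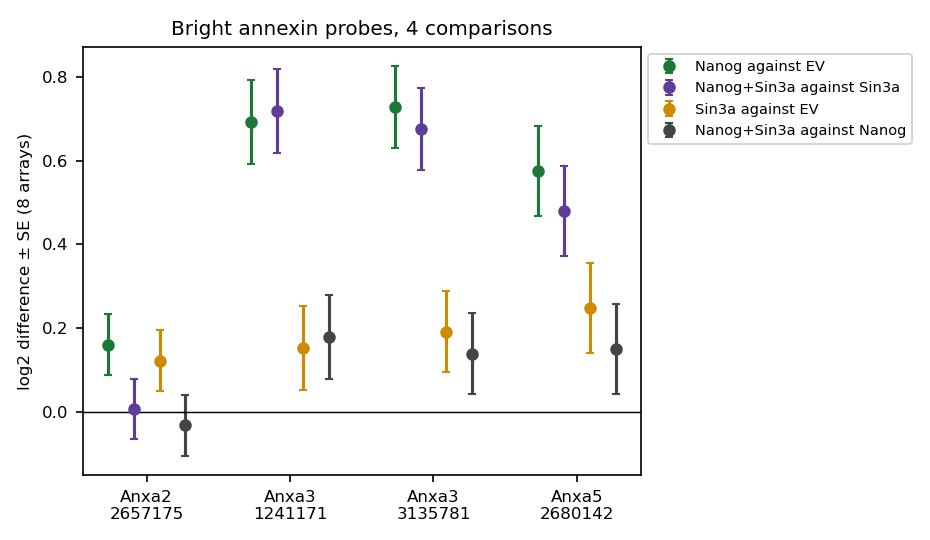
Log2 difference (y axis) with its SE from the 8-array fit for the 4 bright annexin probes (x axis), in 4 comparisons marked by colour. For Anxa3 the comparisons that add Nanog lie at 0.68 to 0.73 and those that add Sin3a at 0.14 to 0.19, while all 4 Anxa2 values lie between -0.03 and 0.16.

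Genes that work with annexins were listed by role, 1 probe per gene. Over the 6 lists, 0 of 36 tested genes passed in Nanog against EV in the limma fit, beside 2.04% of all probes. In Nanog+Sin3a against EV 4 of 36 passed, or 11.1%, all higher, beside 5.87% of all probes, 2.8% higher. Of the 8 S100 genes, small calcium-binding partners of annexins, 7 were tested and 0 passed in Nanog against EV in the limma fit. S100a1 alone was higher in Nanog+Sin3a than in EV (log2 difference 1.10, SE 0.14, limma adjusted p 0.0132), reading 180.5 and 220.7 in EV and 410.7 and 447.1 in Nanog+Sin3a. S100a10, the Anxa2 partner, had a log2 difference of -0.28 in Nanog+Sin3a against EV (limma adjusted p 0.144), and S100a11, a partner of Anxa1, one of 0.00.

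Of 15 membrane repair genes, 11 were tested and 1 was higher in Nanog+Sin3a than in EV, where 5.87% of all probes passed, 2.8% higher. That gene was the large scaffold Ahnak (log2 difference 0.39, SE 0.08, limma adjusted p 0.0427). None passed in Nanog against EV. There the caveolar coat gene Cav1 had the largest difference of the list, 1.47 (SE 0.30, limma adjusted p 0.0718), reading 47.2 on both EV arrays, 167.5 and 102.3 in Nanog and 49.7 and 75.8 in Nanog+Sin3a.

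Of 8 genes of the plasminogen system 3 were tested. Of these 1, the plasminogen activator Plau, was higher in Nanog+Sin3a than in EV, where 5.87% of all probes passed, 2.8% higher. Plau read 15.5 and 14.7 in EV, both below the floor, and 36.4 and 45.4 in Nanog+Sin3a (limma adjusted p 0.0322). In Nanog it read 39.4 and 27.6 (limma adjusted p 0.0982). Of 9 genes for other calcium-dependent phospholipid binding proteins with C2 domains, 7 were tested, and Cpne2, a copine, was higher in Nanog+Sin3a than in EV (log2 difference 1.28, SE 0.23, limma adjusted p 0.0316).

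Of 11 genes that expose or sense phosphatidylserine, the lipid Anxa5 binds, 7 were tested and 0 passed in Nanog or Nanog+Sin3a against EV. Mfge8, a secreted protein that bridges this lipid to phagocytes, was the list's bright probe and was higher in Nanog+Sin3a than in Sin3a (log2 difference 0.48, SE 0.12, limma adjusted p 0.0122), where 11.6% of all bright probes and 1 of 10 bright probes of the lists passed. Of 7 genes for formyl peptide receptors and phospholipase A2, linked to Anxa1 signalling, only Pla2g6 was tested, with a log2 difference of 0.61 in Nanog against EV (SE 0.32, limma adjusted p 0.372). Across these lists no gene passed as lower in any comparison fitted.

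Markers of other cell types moved between the same groups. Of 11 epithelial markers 6 were tested. Their summed intensity was 1736 to 1812 in EV, 1494 to 1594 in Nanog and 2493 to 2989 in Nanog+Sin3a, lower in Nanog and higher in Nanog+Sin3a than in EV. Without Krt14 the sum was 1240 to 1270 in EV, 902 to 907 in Nanog and 993 to 1339 in Nanog+Sin3a, so without that gene the Nanog+Sin3a arrays no longer lay above EV as a group. The Sin3a arrays summed to 1969 and 2241, both above EV, or to 1134 and 1490 without Krt14. Krt14, a keratin of basal epithelium where Anxa8 is also known, read 541.6 and 495.3 in EV and 591.5 and 686.3 in Nanog. It read 835.0 and 750.9 in Sin3a, and 1500 and 1650 in Nanog+Sin3a (log2 difference of the last from EV 1.60, SE 0.11, limma adjusted p 0.00272). It was the only 1 of the 6 to pass, and the median log2 difference of the 6 in Nanog+Sin3a from EV was -0.05. Krt8, Krt19 and Cldn3 had differences of -0.11, -0.61 and -0.82 there (limma adjusted p 0.658, 0.240 and 0.405). Cdh1 and Cldn7 went the other way, at 0.45 and 0.01, and did not pass either. Epcam and Krt18 were below the floor on all 7 arrays of the fit.

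Of 12 mesenchymal markers 6 were tested, with a summed intensity of 3341 to 3353 in EV, 4326 to 4387 in Nanog and 4190 to 4354 in Nanog+Sin3a. This sum was higher in both groups with Nanog than in EV, and also 4099 and 3855.5 on the Sin3a arrays. Vim made up most of it, reading 2200 and 2279 in EV, 2625 and 2763.5 in Nanog, and 2973 and 2845.5 in Nanog+Sin3a. Acta2 read 473.5 and 408.2 in EV, 710.7 and 718 in Nanog, 850.8 and 940.3 in Sin3a, and 566.2 and 443.3 in Nanog+Sin3a. Among bright probes Acta2 was higher in Sin3a than in EV (log2 difference 1.02, limma adjusted p 0.000977), where 0.15% passed. It was lower in Nanog+Sin3a than in Sin3a (-0.84, limma adjusted p 0.000784), where 11.6% passed. Its interaction was -1.54 (limma adjusted p 0.000811). Thy1 alone passed in Nanog against EV, as higher (log2 difference 1.13, SE 0.12, limma adjusted p 0.0131), where 2.04% of all probes passed. In Nanog+Sin3a against EV 3 of the 6 passed, Vim, Thy1 and Dcn, all higher, beside 5.87% of all probes. Twist1 was lower in both, at -0.28 and -0.20, Fn1 was at 0.14 and -0.07, and neither gene passed. Col3a1, Tagln and Postn were below the floor on the 7 arrays. The neural stem cell markers summed to 725 to 785 in EV, 462 to 533 in Nanog and 433 to 476 in Nanog+Sin3a. Egfr made up most of that sum, reading 664.7 and 616.5 in EV, 437.4 and 373.1 in Nanog, and 398.5 and 371.7 in Nanog+Sin3a. Of 6 blood and macrophage markers none was tested, so none was above the floor in 2 of the 7 arrays. The part of these markers in the annexin values was not tested.

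The genes whose profile was most like that of the brighter Anxa8 probe were searched among 3274 probes that ranged over at least 1 on the log2 scale in the 7 arrays. By Pearson correlation they were Arhgdib (0.998), Rab29 (0.996), Bahcc1 (0.995), Mall (0.994), Igfbp6 (0.993), Ly6g6c (0.993), Il6ra (0.990) and Papss1 (0.990). The 7 points share their groups, so this is a description of a common profile. Arhgdib read 477.9 and 470.2 in EV, 1165 and 1439 in Nanog, 441.0 on the first Sin3a array, and 1736 and 1320 in Nanog+Sin3a. Rab29, a small GTPase of vesicle traffic, read 431.7 and 447.2 in EV, 804.0 and 965.6 in Nanog, 453.9 on that Sin3a array, and 994.2 and 880.7 in Nanog+Sin3a. On both genes every array with Nanog was above every array without it among the 7.

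Within the family, the correlation with the same Anxa8 probe over the 7 arrays was 0.982 for the other Anxa8 probe, 0.973 and 0.975 for Anxa3 and 0.953 for Anxa5. It was 0.934 for the dimmer Anxa2 probe, 0.765 for the brighter one and 0.823 for Anxa6. It was -0.549 for Anxa1 and -0.114 and 0.239 for the Anxa4 probes, so the family did not share a single profile.

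**Figure D4:**
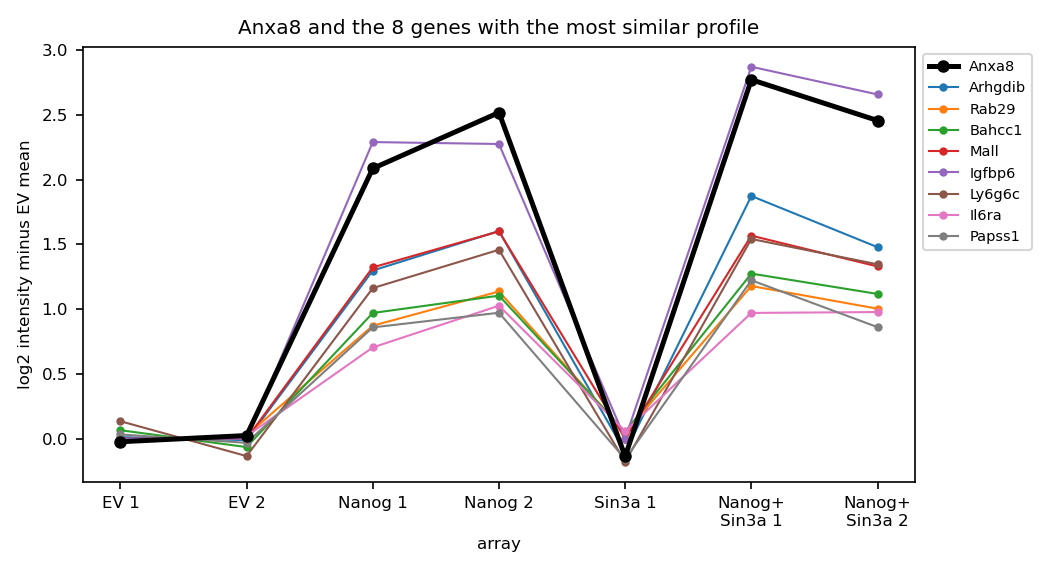
Log2 intensity minus the EV mean (y axis) on each of 7 arrays (x axis), for the brighter Anxa8 probe in black and the 8 genes most like it in colour, with values below the floor raised to it. All 9 lines lie near 0 on the EV and Sin3a arrays and above 0.5 on the 4 arrays with Nanog, with Anxa8 and Igfbp6 the highest.

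The 3 genes on either side of Anxa8 in the RefSeq gene table for GRCm38.p6 were at or near the floor. On the 7 arrays Gm5460 reached at most 16.6, Npy4r 16, Syt15 1.3, Antxrl 0.5 and Gprin2 -11.5, so none could be tested, and the sixth neighbour, A630023A22Rik, was not matched to a probe. Among the 3 genes on either side of Anxa3 only Mrpl1, 2 places away, was tested, with a log2 difference of 0.11 in Nanog against EV (limma adjusted p 0.772). Of those around Anxa5, Acad9 and Zfp267, 3 and 2 places away, were tested, with differences of 0.02 and 0.015 (limma adjusted p 0.976 and 0.994).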

How the data were processed

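RNA of 8 samples was read on Illumina bead arrays. The deposited values are background-subtracted probe intensity on a linear scale, made by the authors with GenomeStudio per the submitters' processing notes. Its version and settings are not given in the sources used here. The values ran from -24 to 14965, with 47.3% to 47.7% below 0. Above the floor the sorted values of 7 arrays lay within 0.741% of the median array (4.18% for the second Sin3a array), so the deposited intensity was taken as already quantile-normalised.

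Values were raised to a floor of 16 and converted to log2. Probes above the floor in at least 2 arrays were tested, each probe kept apart, with limma 3.58.1 in R 4.3.3 (lmFit and eBayes with an intensity trend, 1 coefficient per group). P-values were two-sided and adjusted by the Benjamini-Hochberg method over all probes tested, at a threshold of 0.05. The fits had 3 residual degrees of freedom for 7 arrays and 4 for 8 arrays. The lone Sin3a array of the 7-array fit was assumed to vary like the others. With 2 arrays against 2, an exact permutation test cannot go below 0.333, so none was used. The number of arrays limits the precision.

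In the annotation 34885 probes had 1 symbol, 18 had more than 1 and 10378 had none, and a RefSeq table changed 0 of the 34807 symbols found by gene identifier. Partner and marker lists used the probe of highest mean value per gene. The text names every member, per partner list the called genes that changed most (at most 4, or at most 2 uncalled ones as values), and the 8 genes most like Anxa8. Neighbouring genes, markers and the sequence windows were chosen beside that rule. The members and lists were chosen with earlier results of these data known. The fit was tested on simulated data. Alternatives were the floor, the filter, the normalisation, the trend, 1 probe per symbol, a replicate block, array weights and leaving out arrays.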

Additional observations from a re-analysis of the deposited data

How the results depend on the processing

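The number of annexin calls moved with the settings. Except where a range is given both with and without Anxa8, the counts leave out the 2 Anxa8 probes, described with no test. Where a range includes these probes, it is not a test of Anxa8, and no result for that gene is read from it. In Nanog against EV the count was 3 as reported and 2 with a floor of 8. It was 1 with a replicate block, 0 with no intensity trend and 2 with 1 probe per symbol. It was 3 among bright probes, where 4 were tested, and 0 with no filter on low values or with all 8 arrays and all probes. In Nanog+Sin3a against EV it was 3 as reported, 0 with no filter, 2 with 1 probe per symbol, and 3 with all 8 arrays or among bright probes. In Nanog+Sin3a against Sin3a it was 3 as reported and 1 with all 8 arrays over all probes. Leaving out each array of the 7-array fit gave 0 to 5 annexin calls in Nanog against EV and 0 to 5 in Nanog+Sin3a against EV, or 0 to 3 in each without Anxa8. Leaving out arrays over the bright probes of 8 arrays gave 2 to 3 and always 3, and 2 to 3 in Nanog+Sin3a against Sin3a. Leaving out arrays over the bright probes for the comparisons with EV and Nanog, and the 7-array fit of the Sin3a comparisons, were chosen after seeing the data. Why each count moved was not tested. Some settings also changed how many probes were tested, with fewer for 1 probe per symbol, the bright limit or a floor of 32. With no filter on low values more were tested.

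Over all probes, Nanog against EV gave 601 calls with a floor of 32, 237 with a floor of 8, 31 with no filter, 196 with the replicate block, 0 with all 8 arrays and 972 with array weights. Nanog+Sin3a against EV gave 75 with no filter, 573 with the block, 27 with all 8 arrays, 1843 with weights and 463 among bright probes. Nanog+Sin3a against Nanog gave 18 with a floor of 32, 0 with a floor of 8, 20 with no filter, 0 with the block, 0 with all 8 arrays, 8 with weights and 7 among bright probes. Nanog+Sin3a against Sin3a gave 19 with all probes of 8 arrays, 198 with 7 arrays and 151 with a bright limit of 10. Sin3a against EV gave 7 with arrays centred on the median, 2 with the block and 0 with all probes of 8 arrays, with 7 arrays or with a bright limit of 10. The interaction gave 2 with centred arrays and 0 in those last 3 settings. Leaving out arrays of the 7-array fit gave 0 to 426 calls in Nanog against EV, 0 to 1183 in Nanog+Sin3a against EV and 0 to 8 in Nanog+Sin3a against Nanog. Over the bright probes of 8 arrays it gave 33 to 556, 110 to 623 and 2 to 63 in these comparisons. It gave 92 to 498 in Nanog+Sin3a against Sin3a, 1 to 14 in Sin3a against EV and 0 to 21 for the interaction.

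Same-numbered arrays of EV, Nanog and Nanog+Sin3a did not deviate together over the tested probes (correlations of -0.045, -0.019 and -0.053 between the groups). This shows no broad shift shared by replicate number, but does not settle whether the numbers pair the arrays. With the replicate block, Anxa3 ILMN_1241171 (limma adjusted p 0.0721) and Anxa5 (0.0562) missed the threshold in Nanog against EV.

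Signs turned only for small differences that had not passed. On the log2 scale, over the arrays left out, Nanog against EV ran from -0.54 to 0.0985 for Anxa1, from -0.31 to 0.0585 for Anxa4 ILMN_2772410 and from -0.17 to 0.39 for Anxa4 ILMN_2935012. Nanog+Sin3a against EV ran from -0.37 to 0.15 for Anxa4 ILMN_2935012, from -0.23 to 0.55 for Anxa7 ILMN_1246887 and from -0.22 to 0.16 for Anxa7 ILMN_2561575. Nanog+Sin3a against Nanog ran from -0.55 to 0.0894 for Anxa1, from -0.10 to 0.12 for Anxa2 ILMN_1233117, from -0.37 to 0.0006 for Anxa4 ILMN_2772410, from -0.50 to 0.0614 for Anxa4 ILMN_2935012 and from -0.0848 to 0.0662 for Anxa6. The interaction for Anxa3 ILMN_1241171 ran from -0.10 to 0.16. Nanog+Sin3a against Sin3a for Anxa2 ILMN_2657175 ran from -0.0156 to 0.0295, and was -0.0051 with centred arrays.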
